A study of Mus musculus with 4 samples.

Results

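Transitional B cells are the B cells that have newly reached the spleen from the bone marrow, and here they were sought as cells with RNA of both Cd93 and Vpreb3. The cells were chosen by measured values: cells of the B library with at least 200 detected genes, mitochondrial counts under 10%, a leading hashtag of at least 10 counts and at least 3 times the next, at least 1 count of Cd79a and 0 of Cd3e, at least 1 count each of Cd93 and Vpreb3, and 0 counts of Mki67 and S1pr3. A count is a unique molecular identifier (UMI), which stands for 1 captured RNA molecule. The rule found 107 cells of the 5520 B cells that met its quality, hashtag, Cd79a and Cd3e conditions, in a series of 15646 cell barcodes. They are called Cd93+ Vpreb3+ cells, and they are compared mainly with 2122 B cells that had 0 UMIs of Cd93, Vpreb3, Mki67 and S1pr3, called Cd93- Vpreb3- cells. Because the cells were picked on their own counts, each difference between them and other B cells is a description, with no test.

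The study compared splenic B cells of Il2rb KO and control mice of the C57BL/6NRj background before and after immunization with sheep red blood cells (SRBC). KO day 4 mice (36 Cd93+ Vpreb3+ cells) and control day 4 mice (28 cells) had received SRBC i.p. 4 days earlier, and KO day 0 mice (20 cells) and control day 0 mice (23 cells) were unimmunized. Every group carried a Cre allele expressed in the B lineage and not in T cells, so control B cells held Cre as well. The genotype label gives Cre and Il2rbfl/fl for Ctrl and for KO alike, so the allele that sets them apart is known only from the names KO, Ctrl and Cre. The number of mice behind each pool, their age and the exons deleted are not given in the labels. B cells were isolated magnetically from the spleen, marked with hashtag antibodies by group and loaded together for 10x 5' single-cell sequencing, so each group is 1 pool, cells are not replicates, and no comparison between groups has a test.

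B cells leave the bone marrow once they carry a working antigen receptor, and in the spleen they pass through transitional stages before they join the follicular or the marginal zone pool. The earliest stage is known for high CD93, CD24 and surface IgM and for little CD23 and CD21; CD23 (Fcer2a), CD21 (Cr2) and IgD are gained on the way to the mature cell. Strong binding of self antigen at these stages can silence or kill the cell, and survival depends on the cytokine BAFF. Cd93 (chr2:148436640-148443563, minus strand) encodes the lectin-like receptor recognised by the antibody AA4.1, and Vpreb3 (chr10:75943057-75949657, plus strand) a protein that associates with immunoglobulin chains in B cell precursors. The markers outside the rule were Cd24a (chr10:43578284-43584265, plus strand), a heavily glycosylated surface protein, and Akap12 (chr10:4266380-4359470, plus strand), a scaffold for protein kinase A; these positions are those of mm10 in the GENCODE M21 annotation.

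A cell was placed in its group by a 15-base TotalSeq-C hashtag oligo, carried by an antibody on the cell surface. The 4 oligos are shown because every group assignment rests on them, 5′ to 3′, with no base singled out.
KO day 4: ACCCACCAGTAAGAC
control day 4: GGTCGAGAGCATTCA
KO day 0: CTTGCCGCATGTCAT
control day 0: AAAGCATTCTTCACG
The median Cd93+ Vpreb3+ cell held 2732 UMIs of its own hashtag and 156 of the next in KO day 4, and 3796 and 51 in control day 4. These medians were 1806 and 158 in KO day 0, and 2082 and 146 in control day 0.

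The B library held 6339 barcodes, of which 6218 passed the gene and mitochondrial limits and 5701 had 1 hashtag. The Cd93+ Vpreb3+ cells held 2318 to 28806 UMIs each, with a median of 5604, against a median of 4983 in Cd93- Vpreb3- cells. By pool their medians were 6960 UMIs in KO day 4, 6546 in control day 4, 4932 in KO day 0 and 5433 in control day 0, so the day 4 cells were the deeper ones. Summed over cells the depth was 282576, 220605, 106148 and 139660 UMIs in the same order, 748989 in all, against 11831549 UMIs in Cd93- Vpreb3- cells. Mitochondrial UMIs took a median of 3.52% in both classes. The B and T libraries shared 84 barcodes, among them those of 5 Cd93+ Vpreb3+ cells. In the T library 5 cells met the quality, hashtag, Cd79a and Cd3e conditions and 0 met the whole rule. These are too few to judge the rule by. Levels are given as UMIs of a gene scaled to the total of the summed cells (CPM, per 1000000 UMIs), and a range in parentheses is an exact 95% interval that covers counting error only, not the spread between cells or mice.

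Il2rb, the targeted gene, encodes a receptor chain through which both interleukin-2 and interleukin-15 signal (chr15:78479256-78495271, minus strand). It had 0 UMIs in the Cd93+ Vpreb3+ cells of each pool, which allows a level of up to 4.01 CPM over the 4 pools (3 counts). All 5520 B cells together held 4 Il2rb UMIs in KO day 4, 11 in control day 4 and 0 in either day 0 pool, or 0.280 CPM (0.0763 to 0.717) in KO day 4 and 0.942 CPM (0.470 to 1.69) in control day 4. At this level the gene cannot check the labels of the cells described here. Il2rg, the common gamma chain of several interleukin receptors, was present throughout, at 414 CPM in KO day 4, 372 in control day 4, 433 in KO day 0 and 322 in control day 0. Il2ra, the inducible alpha chain, had 5 UMIs in all, 6.68 CPM, against 1.35 CPM in Cd93- Vpreb3- cells, a ratio of 4.94 (1.41 to 14.1).

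The markers outside the rule went partly with the label transitional B cell. Cd24a was detected in 88 of the 107 cells (82.2%), with 0 to 22 UMIs and a median of 3, against 57.0% of Cd93- Vpreb3- cells. Akap12 was detected in 24 cells (22.4%), against 4.01%. Thinned to 1500 UMIs a cell, which left out 0 Cd93+ Vpreb3+ and 22 Cd93- Vpreb3- cells, Cd24a was found in 46.7% (37.0 to 56.6) of the Cd93+ Vpreb3+ cells, against 25.0% (23.2 to 26.9), and Akap12 in 6.54% (2.67 to 13.0), against 1.33% (0.888 to 1.92). Both markers were thus more frequent in the Cd93+ Vpreb3+ cells at matched depth. Among 7713 T cells of the second library, Cd24a had a UMI in 0.402% and Akap12 in 4.19%, near the 4.01% for Akap12 in Cd93- Vpreb3- cells. Akap12 was rarer in the 181 cells of the B library left out for lack of Cd79a or for Cd3e. There it had a UMI in 2 cells (1.1%, 0.134 to 3.93), at a median depth of 8976 UMIs. Whether the Akap12 RNA of the T cells was stray or their own was not tested.

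Fcer2a encodes the low-affinity IgE receptor CD23, which is gained on the way to the mature follicular cell. Many of the cells held its RNA, though over all pools in a smaller share than Cd93- Vpreb3- cells. Fcer2a had a UMI in 68 of the 107 cells (63.6%, 53.7 to 72.6), against 77.1% of Cd93- Vpreb3- cells and 0 of 7713 T cells. The shares were 66.7% in KO day 4, 71.4% in control day 4, 50% in KO day 0 and 60.9% in control day 0. At 1500 UMIs a cell they were 39.3% (30 to 49.2) in Cd93+ Vpreb3+ cells and 49.5% (47.3 to 51.6) in Cd93- Vpreb3- cells. 4 cells of another stage, described below, all had 0 UMIs of Fcer2a. Without them the share was 66.0% (56.0 to 75.1) over all pools. In control day 4 it was then 76.9%, against 76.6% of Cd93- Vpreb3- cells. At 1500 UMIs a cell it was 40.8% (31.2 to 50.9), an interval that overlaps that of Cd93- Vpreb3- cells. Cr2, the complement receptor CD21, had a UMI in 50.5% of the cells, against 62.4%. The 107 cells therefore held early-marker RNA together with RNA of maturing cells, and they are named by their rule and not by a stage.

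4 of the 107 cells, singled out after their values were seen, had the RNA of another stage of the B lineage. 3 were plasma cell-like, with 56.4% to 65.5% of their UMIs from immunoglobulin genes, while the rest had at most 6.00%. They were a KO day 4 cell of 28806 UMIs with 1692 of Jchain, the joining chain of secreted antibody, and control day 4 cells of 18313 and 20585 UMIs with 1235 and 1525 of Jchain and 1946 and 2149 of Igha. Each of the 3 had a single Vpreb3 UMI. The fourth, in KO day 4, was like a bone marrow precursor, with 46 UMIs of Igll1 and 38 of Vpreb1, the surrogate light chain of precursor B cells, 16 of the recombinase gene Rag1 and 44 of Vpreb3. The 4 cells held 12.6% of the UMIs in KO day 4, 17.6% in control day 4 and 9.96% over all pools, and day 0 held 0 of them. Results that rest on them are given with and without them. The fourth was singled out by its Igll1 UMIs. A control day 0 cell with 0 UMIs of Igll1, 14 of Il7r, 39 of Vpreb3 and 0 of Fcer2a stayed among the rest. Values without the 4 cells thus drop a precursor-like cell at day 4 and keep this one at day 0.

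The share of Cd93+ Vpreb3+ cells among B cells differed by less than counting error between the 4 pools. It was 1.85% (36 of 1950, 1.30 to 2.55) in KO day 4, 1.88% (28 of 1487, 1.25 to 2.71) in control day 4, 2.04% (20 of 982, 1.25 to 3.13) in KO day 0 and 2.09% (23 of 1101, 1.33 to 3.12) in control day 0, and 1.94% (1.59 to 2.34) over all. KO over control gave a ratio of 0.980 (0.582 to 1.67) at day 4, and of 0.975 (0.508 to 1.86) at day 0. The ratio of day 4 to day 0 was 0.906 (0.511 to 1.65) in KO and 0.901 (0.501 to 1.64) in control. These intervals are wide, so the ratios do not show that the shares were equal. Depth differed by pool, and with each cell thinned to 3000 UMIs, which left out 152 B cells in KO day 4, 116 in control day 4, 115 in KO day 0 and 151 in control day 0, both genes were found in 0.779%, 0.729%, 1.27% and 1.37% of B cells. The day 4 to day 0 ratio was then 0.614 (0.259 to 1.49) in KO and 0.533 (0.209 to 1.32) in control, still within counting error of 1. The cells without Fcer2a, nearer to the early stage by that gene, were 0.615% of B cells in KO day 4, 0.538% in control day 4, 1.02% in KO day 0 and 0.817% in control day 0. Their day 4 to day 0 ratio was 0.604 (0.239 to 1.56) in KO and 0.658 (0.221 to 1.92) in control, lower at day 4 in both genotypes and within counting error of 1. The 4 cells of another stage, all at 0 UMIs of Fcer2a, are counted in these day 4 shares. Without them the shares were 0.513% in KO day 4 and 0.40% in control day 4. The ratios were then 0.504 (0.188 to 1.35) in KO and 0.494 (0.145 to 1.55) in control. A further 17 B cells with both genes were left out for a UMI of Mki67 or S1pr3, 8 in KO day 4, 4 in control day 4, 4 in KO day 0 and 1 in control day 0.

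**Figure D1:**
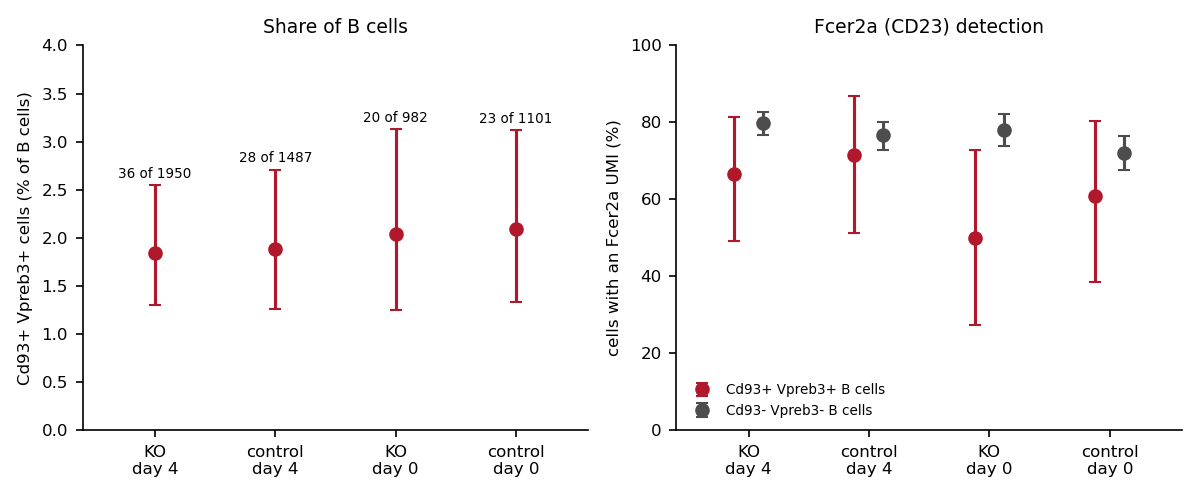
Left, percent of B cells in each pool that were Cd93+ Vpreb3+; right, percent of Cd93+ Vpreb3+ (red) and Cd93- Vpreb3- (gray) B cells with an Fcer2a UMI. Points are single pools and bars are exact 95% binomial intervals. The shares on the left run between 1.85% and 2.09% with overlapping bars. On the right, with all 107 cells, the red point lies below the gray one in every pool. Without the 4 cells of another stage, control day 4 was at 76.9% against 76.6%.

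The rule sits on few molecules. Cd93 had exactly 1 UMI in 86 of the 107 cells and at most 4, and Vpreb3 exactly 1 in 23 cells, a median of 3 and at most 44; 18 cells had exactly 1 of each. Among all B cells Cd93 had a UMI in 3.10% and Vpreb3 in 56.8%, against 0.311% and 0.0648% of T cells. In the 181 cells of the B library that were left out for lack of Cd79a or for Cd3e, with a median of 8976 UMIs, Cd93 was more frequent, at 17.7% (12.4 to 24.0), or 4.52% against 0.928% of B cells when thinned to 1500 UMIs, and Vpreb3 was found in 2.21% and Cd24a in 33.7%. The part of stray Cd93 RNA from such cells in the 86 cells with a single Cd93 UMI was not tested. Cd93 was found in 3.95% of B cells with Vpreb3 and in 1.97% of those without it. Cd24a followed the amount of Vpreb3: it was 735 CPM (635 to 847) in the 40 cells with 5 or more Vpreb3 UMIs, 480 CPM (405 to 565) in the 44 cells with 2 to 4 and 240 CPM (175 to 321) in the 23 cells with 1. These last held the 3 plasma cell-like cells, and the 20 without them had 317 CPM (224 to 434). In the 18 cells at the lower edge of the rule, with 1 UMI of each gene, it was 272 CPM (186 to 383), or 291 CPM (195 to 418) without the 1 of them among the 4, intervals that include the 252 CPM of Cd93- Vpreb3- cells. Just outside the rule it was 323 CPM in 2717 cells with Vpreb3 only and 274 CPM in 36 cells with Cd93 only. By Cd93 it was 587 CPM in the 21 cells with 2 or more UMIs and 484 CPM in the 86 cells with 1, and without the 4 cells 808 CPM (656 to 983) in 18 cells and 495 CPM (438 to 557) in 85 cells. Vpreb3 without Cd93 went with Cd24a as well: the 331 cells with Vpreb3 only at 5 or more UMIs had 475 CPM. Other genes did not all follow Vpreb3 within the 107 cells. At 5 or more, 2 to 4 and 1 Vpreb3 UMIs, Sox4 had 53.6, 43.3 and 160 CPM. Akap12 had 49.8, 66.7 and 10.7 CPM in that order, and Atp1b1 218, 26.7 and 47.9 CPM. Sox4 was thus highest at 1 Vpreb3 UMI, where 2 KO day 4 cells held 14 and 11 of its 57 UMIs.

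Beside the rule genes, the genes that stood highest in Cd93+ Vpreb3+ cells against Cd93- Vpreb3- cells were Cplx2, Serinc5 and Akap12. Of 9494 genes with at least 50 UMIs in the summed cells of both classes, 8.33% were 1.5-fold or more higher and 13.7% were 1.5-fold or more lower, with a median log2 ratio near 0. Of the genes past 1.5-fold, 37.8% were the higher ones, 48.6% when CPM left out immunoglobulin genes, 25.4% when it left out ribosomal and mitochondrial genes and 47.5% without the 4 cells. Cplx2 encodes complexin 2, which regulates vesicle fusion (chr13:54371349-54383917, plus strand). It had 31.9 CPM in KO day 4, 40.8 in control day 4, 18.8 in KO day 0 and 43.0 in control day 0, against 1.36, 1.5, 1.92 and 8.43 CPM in Cd93- Vpreb3- cells of the same pools. It was higher in every pool, and over all pools the ratio was 12.8 (7.35 to 22.2). The 26 UMIs came from 16 cells with at most 3 in each.

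Serinc5 (chr13:92611091-92711947, plus strand), a membrane protein of the serine incorporator family, had 42.5 CPM in KO day 4, 58.9 in control day 4, 65.9 in KO day 0 and 57.3 in control day 0, against 5.90, 5.11, 11.05 and 7.43 CPM. The lowest pool of Cd93+ Vpreb3+ cells lay above the highest of Cd93- Vpreb3- cells, and the ratio was 7.80 (5.20 to 11.5), with 40 UMIs in 26 cells. Akap12 had 42.5 CPM in KO day 4, 31.7 in control day 4, 65.9 in KO day 0 and 64.4 in control day 0, against 7.27, 6.61, 12.5 and 11.4 CPM. Its ratio was 5.37 (3.55 to 7.95), and its interval lay above 1 in each pool. Akap12 was not particular to these cells. In the 331 cells with Vpreb3 only at 5 or more UMIs it had 47.4 CPM (39.1 to 56.9), near the 46.7 CPM of the 107 cells. It had 18.6 CPM in all 2717 cells with Vpreb3 only and 5.76 CPM in the 36 with Cd93 only. Rgs2 (chr1:143999338-144004161, minus strand), which dampens signals of G protein-coupled receptors, had 42.5, 27.2, 104 and 71.6 CPM in the same order, against 8.40, 14.1, 26.9 and 8.92 CPM, a ratio of 3.90 (2.67 to 5.57). The rest of the 12 highest were Hivep3, a zinc finger protein, at 4.75 (3.07 to 7.16), Smim24 at 4.17, Eps8 at 4.03, Ehd2 at 4.02, the phosphatase gene Dusp10 at 3.99, Coq7, of coenzyme Q synthesis, at 3.95, Csrp2 at 3.95 and Gm47730 at 3.90. All 12 but Hivep3 were above 1 in every pool; Hivep3 was at 0.628 in control day 0. Without the 4 cells the 12 ratios kept their direction.

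At the low end were genes that some mature B cells express. Il9r (chr11:32187541-32200279, minus strand), the interleukin-9 receptor, had 0, 1, 1 and 0 UMIs in KO day 4, control day 4, KO day 0 and control day 0, where Cd93- Vpreb3- cells had 41.8, 40.6, 47.1 and 39.2 CPM. Its ratio was 0.0637 (0.00769 to 0.231), from 2 UMIs in all against 496. Traf1, an adaptor of TNF receptors, had 2 UMIs in all against 374 (0.0845, 0.0102 to 0.307), S100a6, a calcium-binding protein, 5 against 693 (0.114, 0.0369 to 0.267), and Cebpb, a basic leucine zipper factor, 3 against 366 (0.129, 0.0266 to 0.381). Slc7a5, the large amino acid transporter, had 0 against 135 UMIs, at least 2.85-fold lower, and Dhx33 0 against 121, at least 2.55-fold lower, with 3 counts over all pools as the floor. Stambp, Lpcat2, Snupn, Gm16091, Nid1 and Zkscan17 made up the 12, at ratios of 0.0924 to 0.176, and all 12 were below 1 in each pool. Against Fcer2a+ cells alone, where 8.01% of 9044 genes were 1.5-fold or more higher and 12.4% lower, Serinc5 (7.89), Hivep3 (5.83), Akap12 (5.69), Smim24 (5.07) and Bhlhe41 (4.75) led, and Il9r (0.0660) and Traf1 (0.0888) were again low.

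**Figure D2:**
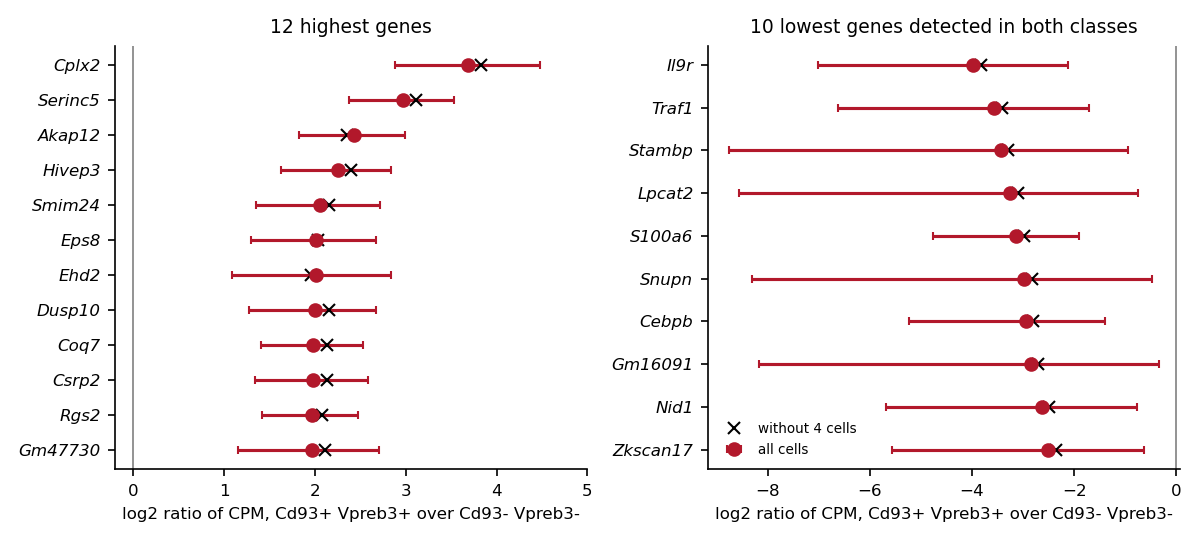
The log2 ratio of CPM of Cd93+ Vpreb3+ over Cd93- Vpreb3- cells is on the x axis, for the 12 highest genes (left) and the 10 lowest genes with a UMI in both classes (right); red points are all 107 cells with 95% intervals of counting error, and crosses are the values without the 4 cells. Cplx2, Serinc5 and Akap12 lead on the left, Il9r and Traf1 are lowest on the right, and the crosses lie inside the bars.

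Promoter sequence was available for Vpreb3 among the 4 markers and for 8 of the 12 highest and 10 of the 12 lowest genes. Vpreb3 and 3 of the highest genes are printed, 5′ to 3′ on the gene's strand, from 250 bases before to 50 after the gene's start in RefSeq, build GRCm38.p6; for each of these genes that start differs from the start of the GENCODE gene given above. Capitals mark the E-box CAGCTG, a sequence that E proteins such as Tcf3 are known to bind, which is its own reverse complement; positions count from the gene's start.
Vpreb3, chr10:75948050-75948349, plus strand, 0 matches: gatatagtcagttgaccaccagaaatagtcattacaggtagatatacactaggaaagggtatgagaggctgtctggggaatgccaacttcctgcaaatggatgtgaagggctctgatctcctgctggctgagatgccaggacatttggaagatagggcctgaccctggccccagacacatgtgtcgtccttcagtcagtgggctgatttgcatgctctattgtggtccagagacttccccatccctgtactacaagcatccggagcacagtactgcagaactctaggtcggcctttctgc
Cplx2, chr13:54302306-54302605, plus strand, match at -162: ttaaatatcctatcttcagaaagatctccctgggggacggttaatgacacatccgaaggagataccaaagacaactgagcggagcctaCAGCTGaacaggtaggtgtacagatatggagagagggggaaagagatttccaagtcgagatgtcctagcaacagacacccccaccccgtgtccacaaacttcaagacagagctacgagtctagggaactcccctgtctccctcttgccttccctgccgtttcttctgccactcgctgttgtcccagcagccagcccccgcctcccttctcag
Serinc5, chr13:92610888-92611187, plus strand, match at -11: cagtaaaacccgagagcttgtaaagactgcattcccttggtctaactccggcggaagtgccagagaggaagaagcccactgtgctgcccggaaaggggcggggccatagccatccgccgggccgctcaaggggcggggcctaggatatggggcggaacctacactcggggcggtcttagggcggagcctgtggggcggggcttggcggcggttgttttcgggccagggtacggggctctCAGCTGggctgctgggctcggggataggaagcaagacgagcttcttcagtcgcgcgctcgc
Rgs2, chr1:144004100-144004399, minus strand, match at 4: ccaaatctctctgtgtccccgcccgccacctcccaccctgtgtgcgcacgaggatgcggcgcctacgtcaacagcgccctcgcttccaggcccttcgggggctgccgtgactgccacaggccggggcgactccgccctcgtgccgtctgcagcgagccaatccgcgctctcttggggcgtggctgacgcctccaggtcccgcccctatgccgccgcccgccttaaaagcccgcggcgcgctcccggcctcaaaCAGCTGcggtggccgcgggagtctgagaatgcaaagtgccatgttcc
The E-box occurred in 5 of the 8 promoters of the highest genes (Cplx2, Ehd2, Rgs2, Serinc5 and Smim24). It occurred in 0 of the 10 of the lowest and in 16.3% of 32851 promoters of the same length. Another motif was also searched for, a palindrome named for the factor Ebf1. It occurred in 0 of the 8 promoters of the highest genes and in 1 of the 10 of the lowest (Snupn). Its share of the 32851 promoters was 0.904%, and Vpreb3 had 0 matches. These are matches of letters and no evidence of binding.

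The list of immature and transitional markers outside the rule held 20 genes, of which 15 had 50 UMIs. 9 of the 15 were 1.5-fold or more higher and 1, at 0 UMIs, was counted as lower, with a median log2 ratio of 1.02, where 8.33% of all genes were higher, 13.7% lower and the median was near 0. Cd24a had 340 CPM in KO day 4, 308 in control day 4, 1027 in KO day 0 and 773 in control day 0, against 230.5, 223, 268 and 329 CPM in Cd93- Vpreb3- cells, a ratio of 2.02 (1.81 to 2.25). It was higher in each pool, and by more at day 0. Pafah1b3, a subunit of an acetylhydrolase of platelet-activating factor, had 110 CPM in KO day 4, 168 in control day 4, 179 in KO day 0 and 251 in control day 0, against 53.1 CPM over all Cd93- Vpreb3- cells (3.07 over all). Chchd10, a mitochondrial protein, had 226, 236, 405 and 480 CPM in that order, against 137, 133, 133 and 144 CPM (2.21 over all). Fam129c was 2.57-fold higher and Cd72, a coreceptor that dampens antigen receptor signals, 1.55-fold (1.35 to 1.77). Marcksl1 (0.711), Marcks (0.878), Ptprj (1.05), Cnn3 (1.25) and Ms4a1 (1.38) were within 1.5-fold, and Lair1, an inhibitory receptor for collagen, had 0 UMIs against 5.75 CPM, at least 1.43-fold lower by the floor of 3 counts over all pools, so that the floor does not reach 1.5-fold.

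Sox4, Myb and Tifa of the same list were higher too, with many of their UMIs in single cells. Tifa, an adaptor of TRAF6 signalling, was at 3.34 (2.28 to 4.78), or 2.51 without the 4 cells. Sox4 (chr13:28948919-28953713, minus strand), a transcription factor of early B cells, had 117 CPM in KO day 4, 36.3 in control day 4, 56.5 in KO day 0 and 71.6 in control day 0, against 7.27, 8.11, 8.17 and 11.4 CPM, a ratio of 9.10 (6.45 to 12.7). The ratio was 4.47 or more in each pool, and 20 of the 107 cells had a UMI of it, while 14 and 11 of the 57 UMIs came from 2 KO day 4 cells. Myb, a factor of progenitors, had 34 of its 42 UMIs in KO day 4 and 2, 2 and 4 in control day 4, KO day 0 and control day 0. 11 of them came from the precursor-like cell and 8 each from 2 other KO day 4 cells, both with 0 UMIs of Fcer2a; without the 4 cells its ratio was 5.67 instead of 6.91. Il7r, the receptor of pro-B and pre-B cells, had 14 of its 17 UMIs in 1 control day 0 cell that also had 39 of Vpreb3, 1 of Rag1 and 0 of Fcer2a.

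Among the transcription factors of the B lineage, 7 of 26 with 50 UMIs were 1.5-fold or more higher and 1 lower, with a median log2 ratio of 0.31. Of all genes 8.33% were higher and 13.7% lower, with a median near 0. Spib, an ETS factor, had 209 CPM in KO day 4, 218 in control day 4, 377 in KO day 0 and 408 in control day 0, against 153, 137, 173 and 185 CPM, a ratio of 1.73. Tcf3, which encodes the E protein E2A, had 184, 163, 254 and 243 CPM, against 112, 120, 122 and 147 CPM, a ratio of 1.63. Both were higher in every pool. Lef1 (9.37), E2f2 (2.56) and Bach2 (1.5) were the other higher ones beside Sox4 and Myb, which the list of immature markers counts as well. The precursor-like cell held 15 of the 35 Lef1 UMIs, and without the 4 cells the Lef1 ratio was 5.95. Ebf1, which specifies the B lineage, had 1101, 1052, 1441 and 1382 CPM, against 774, 764, 868 and 898 CPM, a ratio of 1.47 that fell short of 1.5. Pax5 (1.24), Foxo1 (1.34) and Id3 (1.42) were above 1 as well. Zbtb20 was the lower one, with 31.9, 36.3, 47.1 and 14.3 CPM against 84.9, 67.0, 88.4 and 93.2 CPM, a ratio of 0.391 (0.249 to 0.586).

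**Figure D3:**
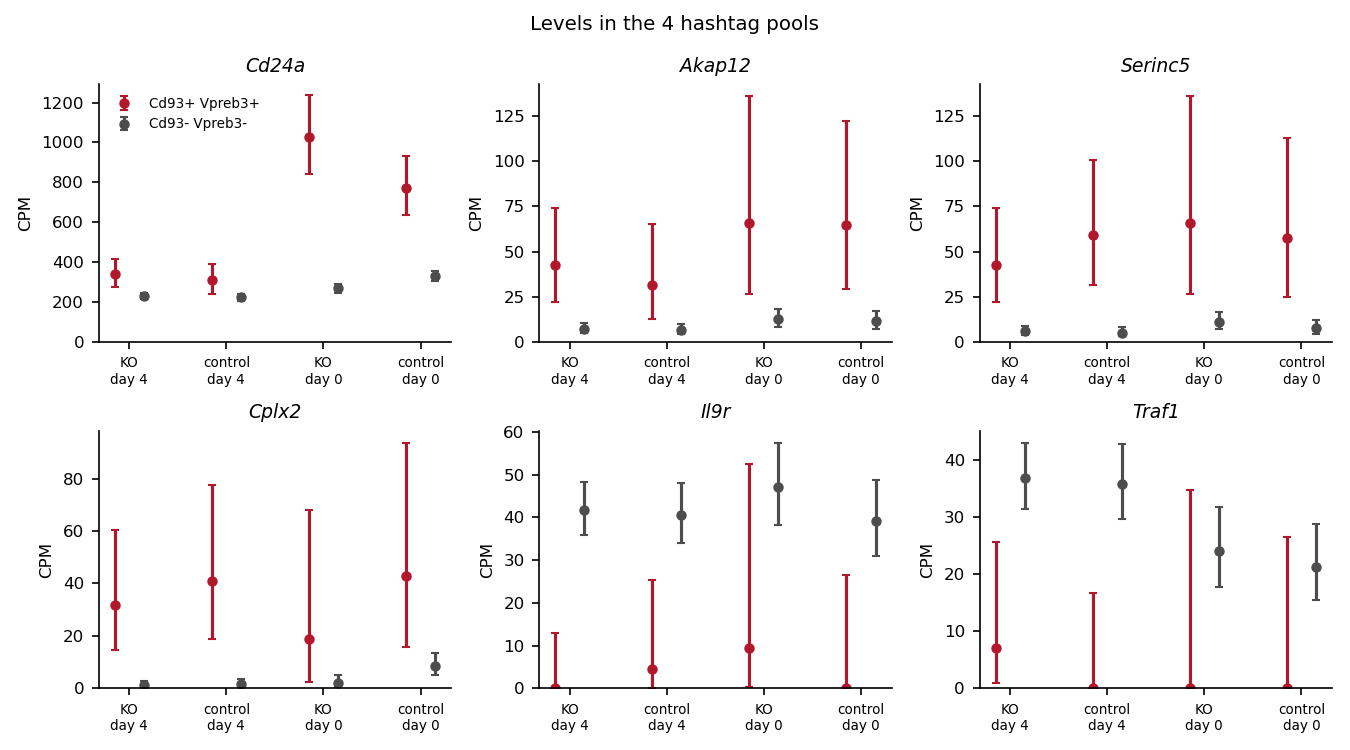
CPM of 6 genes in Cd93+ Vpreb3+ (red) and Cd93- Vpreb3- (gray) B cells of each pool, with exact 95% Poisson intervals. Cd24a, Akap12, Serinc5 and Cplx2 lie higher in the red points of every pool and Il9r and Traf1 lower, and the red Cd24a points are highest in the day 0 pools.

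Of the genes of mature follicular cells few passed 1.5-fold, while several of marginal zone and B1 cells were lower. Of 16 mature follicular genes with 50 UMIs, 0 were higher and 4 lower, with a median log2 ratio of -0.35, beside 8.33% higher and 13.7% lower of all genes. With the 4 cells left out, 1 was lower and the median was -0.20, beside 10.9% higher and 12% lower of all genes. Cr2 had 333 CPM in KO day 4, 199 in control day 4, 132 in KO day 0 and 243 in control day 0, against 385 CPM over all Cd93- Vpreb3- cells, a ratio of 0.645 (0.554 to 0.747), or 0.716 (0.615 to 0.830) and short of 1.5-fold without the 4 cells. Itgb7, an integrin chain of gut homing, was at 0.508, Ms4a4c at 0.637 and Icosl, a ligand of T cells, at 0.664. Fcer2a itself was at 0.847 and Ighd, the heavy chain of IgD, at 0.742. Of 14 marginal zone genes 6 were lower and 0 higher (median -0.35, with S1pr3 itself set to 0 in both classes), among them Il9r, the membrane repair gene Myof (0.226) and the Notch target Dtx1 (0.436). Of 8 genes of B1 cells 5 were lower, with S100a6 and Anxa2 (0.113) the lowest, and 2 higher, among them the repressor Bhlhe41 (2.17).

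Antigen presentation, homing and growth genes held 0 higher genes, and lower ones made up a larger share of the homing and growth lists than of all genes. Of 13 genes of MHC class II presentation 2 were lower, the costimulator Cd86 (0.374) and Icosl, a share near that of all genes, and the median log2 ratio was -0.43; without the 4 cells 1 was lower and the median was -0.29. H2-Aa, the alpha chain of I-A, had 3868 CPM in KO day 4, 4247 in control day 4, 3476 in KO day 0 and 3917 in control day 0, against 5676, 5601, 5434 and 5175 CPM, lower in each pool. Of 15 homing genes 4 were lower: the integrin chains Itgb1 (0.348) and Itgb7, the chemokine receptor Ccr6 (0.388) and the oxysterol receptor Gpr183 (0.603). Of 13 genes of ribosome making and of Myc itself, 4 were lower (median -0.53), among them the polyamine genes Srm (0.507) and Odc1 (0.557), while Myc was at 0.988. With the 4 cells left out, 3 homing genes and 4 growth genes were lower, with medians of -0.21 and -0.38. Of all genes 8.33% were higher and 13.7% lower.

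Survival, receptor and cytokine genes gave a mixed picture, to be read beside 8.33% of all genes higher and 13.7% lower. Of 12 BCL2 family genes Bad (1.83) and Bmf (1.97, 0.759 to 4.34) were higher and Bcl2a1d (0.228), Bcl2a1b (0.294) and Pmaip1 (0.293, 0.0350 to 1.08) lower; a list counts a gene by the size of its ratio, also where, as for Bmf and Pmaip1, the interval includes 1. Bcl2a1b, a survival gene of mature B cells, had 28.3 CPM in KO day 4, 22.7 in control day 4, 18.8 in KO day 0 and 21.5 in control day 0, against 84.9, 71.5, 71.1 and 103 CPM, and Mcl1, another survival gene, 563, 580, 763 and 766 CPM against 401, 383, 483 and 513 CPM. They pointed in opposite directions in each pool, Mcl1 at a ratio of 1.48 (1.34 to 1.62). Of the 9 genes of the BAFF system 0 passed 1.5-fold; Tnfrsf13b, the receptor TACI, was at 1.28 (1.10 to 1.49) and Tnfrsf13c, the BAFF receptor, at 1.16. Of 20 antigen receptor signalling genes Cd72 was higher and 0 were lower. Of 13 interferon-induced genes 2 were higher, Ifi27l2a (1.57, 1.47 to 1.67) and Rsad2 (1.94, 0.746 to 4.26), and 2 lower, Ifit3 (0.271) and Isg15 (0.594). The 8 genes of the interleukin-2 receptor family with 50 UMIs, among which Il2ra was not for its few UMIs, held 1 lower gene, Il15ra, the alpha chain of the interleukin-15 receptor (0.585, 0.0691 to 2.22), and 0 higher ones.

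Immunoglobulin RNA turned on the 4 cells. Igkc, the kappa constant region, had 3585 CPM in KO day 4, 12089 in control day 4, 1310 in KO day 0 and 967 in control day 0, against 1397, 1783, 1556 and 1446 CPM, a ratio of 3.42. Without the 4 cells it was 859 CPM in each day 4 pool and the ratio was 0.617. Jchain behaved likewise, at 6.66 with them and 0.0083 without, as did the list of 7 plasma cell genes, 5 of which were higher and 0 lower with the 4 cells and 1 higher and 3 lower without. Cells of this kind were not taken out of the Cd93- Vpreb3- cells, so the ratios without the 4 cells set a trimmed class against a whole one. Plasma cell genes summed to 611 CPM in the trimmed class and 1573 CPM in the whole one. Ighm, the heavy chain of IgM, was 1677 CPM in KO day 4 and 1519 in control day 4 without the 4 cells, and 2082 in KO day 0 and 1511 in control day 0, against 1414 CPM. Iglc1, a lambda constant region, did not depend on them: it had 888, 675, 1178 and 659 CPM in KO day 4, control day 4, KO day 0 and control day 0, against 241, 286, 235 and 374 CPM, higher in every pool. Cells with more lambda than kappa variable gene UMIs were 21.5% of the 107 (23 cells, 14.1 to 30.5), against 8.81% of Cd93- Vpreb3- cells (187 of 2122, 7.64 to 10.1) and 9.05% of those with Vpreb3 only. By pool the share was 22.2% (10.1 to 39.2) in KO day 4 and 25.0% (10.7 to 44.9) in control day 4. It was 5% (0.127 to 24.9) in KO day 0, from 1 cell of 20, and 30.4% (13.2 to 52.9) in control day 0. KO day 0 was the lowest, with an interval that overlapped those of the other pools. Its Iglc1 level, 1178 CPM, was the highest of the pools, so Iglc1 did not follow this share from pool to pool. A count on the constant regions called 89.7% of the 107 cells and 84.8% of Cd93- Vpreb3- cells lambda, at odds with the variable genes. It was the measure first chosen, and the count of variable genes was added after the data were seen. Whether the deposited counts of Igkc are too low was not tested, so Igkc and Iglc1 are given as counted and compared between classes only.

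The 103 cells outside the 4 were then divided by Fcer2a, a split added after the data were seen. 35 cells had 0 UMIs of Fcer2a and 68 had at least 1. The control day 0 cell with 14 Il7r and 39 Vpreb3 UMIs was among the 35. The negative cells held fewer UMIs per cell than the positive ones, and Fcer2a is missed more often in shallower cells, as the thinned shares above show. The part of depth in this split was not tested. Of 2050 genes with 50 UMIs, 9.80% were 1.5-fold or more higher and 8.44% lower in the Fcer2a-negative cells, while of 10 immature marker genes 7 were higher and 0 lower (median log2 ratio 0.94) and of 12 MHC class II genes 0 were higher and 8 lower (median -0.67). Pafah1b3 had 354 CPM in Fcer2a-negative and 102 CPM in Fcer2a-positive cells, a ratio of 3.46 (2.36 to 5.09). Chchd10 had 558 and 227 CPM (2.45, 1.86 to 3.23), from 1.39 (0.863 to 2.18) within day 4 and 3.34 (2.20 to 5.19) within day 0, and Cd24a 821 and 449 CPM (1.83, 1.48 to 2.26). Ebf1 (1.99), Spib (1.76), Cd72 (1.64) and Ighm (1.42, 1.26 to 1.61) were also higher in the negative cells, and Ighd was lower (0.630). As background, IgM and CD24 are highest and IgD lowest on the earliest transitional cells. Vpreb3, a rule gene given for description, had 1347 and 543 CPM. Myb had a ratio of 8.98, with 16 of the 24 UMIs of the negative cells in 2 of them. Within day 4 it was at 21.1 (7.12 to 84.6), and within day 0 at 1.43 (0.192 to 10.7), an interval that includes 1.

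Cr2, whose protein CD21 is gained in step with CD23, was lower in the Fcer2a-negative cells, with 69.7 CPM against 354 CPM in positive ones, a ratio of 0.197 (0.103 to 0.345). It was low at both days, 0.183 at day 4 and 0.245 at day 0. Samsn1, an adaptor that restrains B cell activation, had 107 CPM in negative and 555 CPM in positive cells (0.193, 0.116 to 0.304), Il4i1, an amino acid oxidase induced in activated B cells, a ratio of 0.264, and Cd83, an activation marker, 0.384 (0.248 to 0.573). Samsn1, Cd83 and Il4i1 are genes that differed by day, and the negative cells were 16 of 60 at day 4 and 19 of 43 at day 0. Within day 4 Samsn1 was at 0.249 and Cd83 at 0.459, and within day 0 at 0.441 (0.105 to 1.43) and 0.717 (0.266 to 1.77), and both day 0 intervals include 1. Ciita, the master regulator of MHC class II genes, was at 0.426 (0.251 to 0.686), from 0.692 (0.380 to 1.18) at day 4 and 0.191 at day 0. Pafah1b3 was higher in the negative cells at both days, 3.10 and 3.73, whereas Cd24a was so at day 0 (1.81, 1.37 to 2.39) and not at day 4 (1.05, 0.686 to 1.55).

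**Figure D4:**
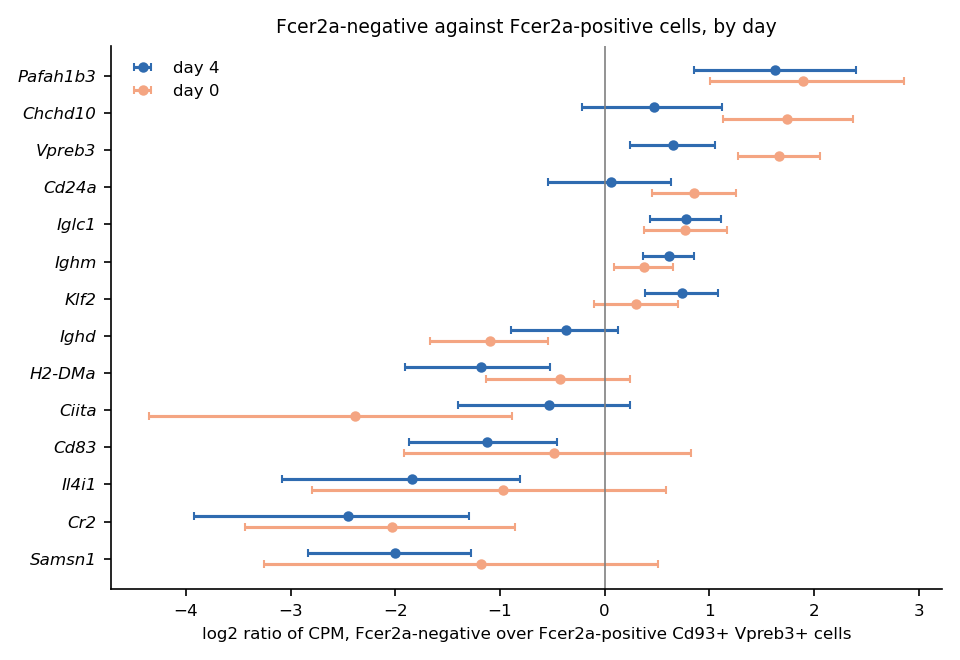
The log2 ratio of CPM of Fcer2a-negative over Fcer2a-positive Cd93+ Vpreb3+ cells is on the x axis, without the 4 cells, within day 4 (blue, 16 and 44 cells) and within day 0 (orange, 19 and 24 cells), with 95% intervals of counting error. Pafah1b3, Vpreb3, Iglc1 and Ighm lie above 0 and Cr2 below 0 at both days, while the day 0 bars of Samsn1, Cd83 and Il4i1 cross 0.

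At 4 days after SRBC, activation genes were higher in Cd93+ Vpreb3+ cells of both genotypes, and several immature markers were lower. Samsn1 (chr16:75858793-76022281, minus strand) had 531 CPM in KO day 4, 562 in control day 4, 66.0 in KO day 0 and 71.6 in control day 0. The days did not overlap, and the day 4 to day 0 ratio was 8.05 (3.81 to 20.4) in KO and 7.85 (4.13 to 16.8) in control. At least 5 Samsn1 UMIs were found in 30.6% of KO day 4 and 32.1% of control day 4 cells and in 0 of 20 and 0 of 23 day 0 cells. Cd83 had 457, 299, 104 and 93.1 CPM in the same order, ratios of 4.41 (2.38 to 9.04) in KO and 3.21 (1.76 to 6.35) in control, and Sypl, a synaptophysin-like vesicle protein, 319, 317, 104 and 93.1 CPM, ratios of 3.07 (1.64 to 6.38) and 3.41 (1.87 to 6.72). The same genes were higher at day 4 in Cd93- Vpreb3- cells, where Samsn1 had 559, 483, 103 and 96.1 CPM, with ratios of 5.43 in KO and 5.02 in control. The direction was thus the one seen in other B cells, and the difference in size between the classes was not tested.

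Of 1043 genes with 50 UMIs in KO, 10.3% were 1.5-fold or more higher and 11.9% lower at day 4, and of 884 in control, 6.00% were higher and 13.5% lower. The 4 cells weighed on these splits: the higher ones were 46.3% of the genes past 1.5-fold in KO and 30.8% in control, against 62.1% and 55.6% without the 4 cells and 59.2% and 53.7% with CPM that left out immunoglobulin genes. The median log2 ratio of all genes was -0.09 in KO and -0.19 in control, and 0.01 and 0.02 without the 4 cells. Of the list of day 4 activation genes, drawn up with results of these data known, 3 of 4 were higher in KO and 4 of 5 in control, and 0 lower. Of the immature marker genes 0 were higher and 5 of 7 lower in KO (median log2 ratio -0.71), and 0 higher and 3 of 5 lower in control (median -0.72). Cd24a was lower at day 4 by a ratio of 0.331 (0.249 to 0.439) in KO and 0.399 (0.290 to 0.545) in control, and by 0.359 and 0.455 without the 4 cells. In Cd93- Vpreb3- cells the ratios were 0.861 and 0.678, and in cells with Vpreb3 only 0.682 and 0.617. Spib was lower at 0.554 (0.365 to 0.850) in KO and 0.533 (0.355 to 0.797) in control, and without the 4 cells at 0.634 and 0.647. Without the 4 cells Cd24a had 375 CPM at day 4 and 1198 CPM at day 0 in Fcer2a-negative cells, and 358 and 663 CPM in Fcer2a-positive ones, so it was lower at day 4 with and without Fcer2a. Fewer cells of an early stage and less RNA per cell cannot be told apart here. The day 4 pools also held 2 of the 4 cells each and the deeper cells, and the part of depth was not tested. The control day 0 cell with 14 Il7r UMIs stayed in the values without the 4 cells, and its part was not tested.

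**Figure D5:**
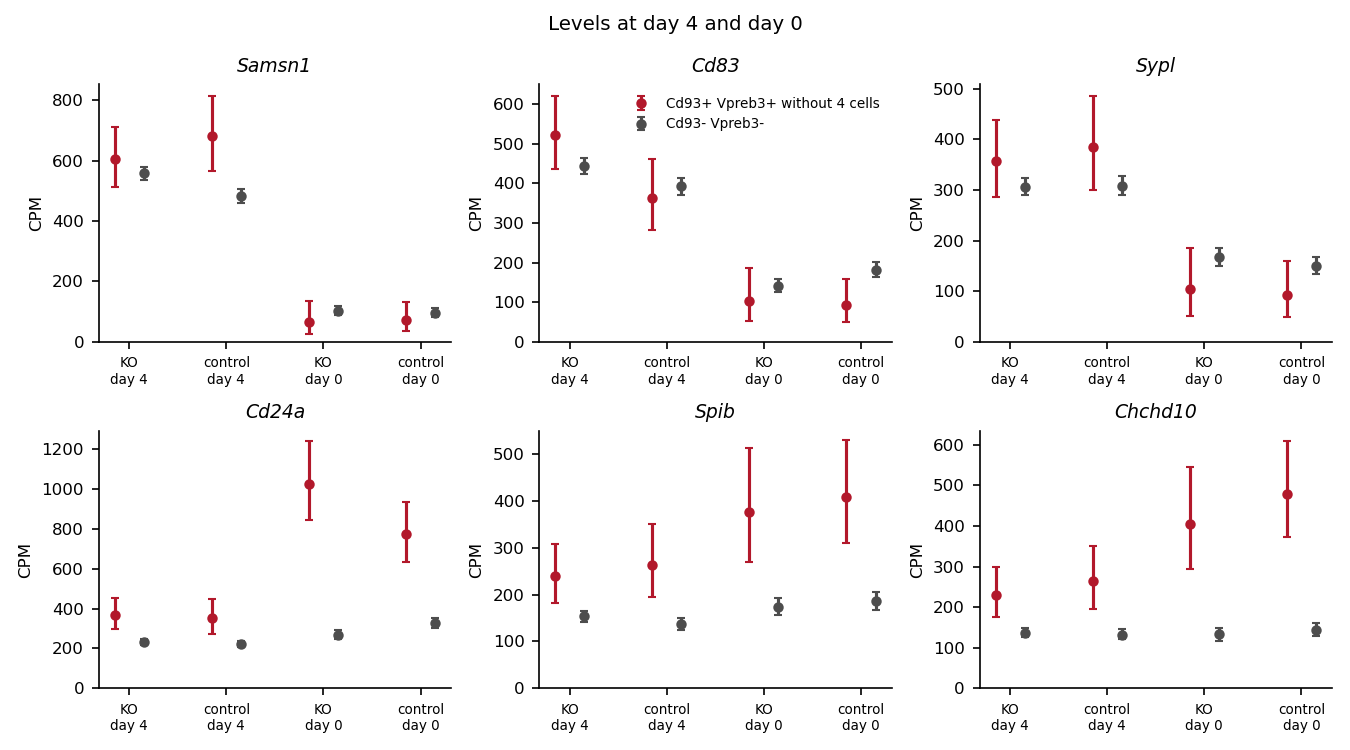
CPM of 6 genes in Cd93+ Vpreb3+ cells without the 4 cells (red) and in Cd93- Vpreb3- cells (gray) of each pool, with exact 95% Poisson intervals. Samsn1, Cd83 and Sypl are higher in the day 4 pools in both colors, and the red points of Cd24a, Spib and Chchd10 are lower at day 4 than at day 0.

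Further genes were named by size in each genotype, and the difference between the genotypes was not tested. In KO the 8 highest were Samsn1, Top1 (4.70, 1.72 to 17.9), Cd83, Lmo2 (3.76), Gimap8 (3.38), Sypl, Dennd4a (2.88) and Ciita (2.84); these were picked for their size in KO, and in control Top1 was at 0.819, Lmo2 at 0.981 and Ciita at 1.04. The 8 lowest in KO were Siglecg (0.348), the inhibitory lectin of B cells, Vim (0.394), Dusp2 (0.408), Acp5 (0.410), Fam129c (0.417), Abhd17a, Psmd8 and Gm26740 (0.438). In control the highest included Samsn1, Sypl, Tmem123 (2.50), Ifi30 (2.14), Trim30a (2.0), Il4i1 (1.98) and Gimap4 (1.98). The 8 lowest in control were Nono (0.376), Cd24a, 2010309G21Rik (0.408), Smarca5, Tra2b (0.428), Snx5 (0.430), Gm42031 (0.445) and Lbh (0.450). Siglecg had 223 CPM in KO day 4, 322 in control day 4, 641 in KO day 0 and 329 in control day 0, so the KO day 0 pool was the one that stood apart.

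Between genotypes the Cd93+ Vpreb3+ cells differed in few named genes that held at both days. At day 4, of 1334 genes with 50 UMIs, 11.4% were 1.5-fold or more higher and 3.07% lower in KO, and at day 0, of 600 genes, 9.00% were higher and 7.00% lower. At day 4 the higher ones were 78.8% of the genes past 1.5-fold, 68.1% with CPM that left out immunoglobulin genes and 62.6% without the 4 cells, and the median log2 ratio was 0.13, or 0.01 without them. Gm43305, a processed transcript (chr14:54292443-54297456, minus strand), had 67.2 CPM in KO day 4, 326 in control day 4, 56.5 in KO day 0 and 372 in control day 0. It was lower in KO at both days, at 0.206 (0.117 to 0.345) and 0.152 (0.0533 to 0.353), and in Cd93- Vpreb3- cells too, at 0.437 and 0.421. Tnfrsf13c had 297 CPM in KO day 4, 168 in control day 4, 377 in KO day 0 and 200 in control day 0. It was higher in KO at both days, 1.77 (1.19 to 2.68) and 1.88 (1.13 to 3.16), while in Cd93- Vpreb3- cells it was at 1.0 and 0.993. Ptpn6, the phosphatase SHP-1 that dampens receptor signals, was higher at 1.53 (1.16 to 2.03) at day 4 and 2.19 (1.55 to 3.13) at day 0. With 1 pool per genotype and day, genotype and the mice of a pool cannot be told apart.

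The other genes named by size at day 4 were Wdr26 (3.24, 1.75 to 6.48), Dmxl1 (2.94), St13 (2.76), Gimap8 (2.51), Nipbl (2.40), Lamp1 (2.39), Sp110 (2.38) and Git2 (2.34), higher in KO, and Ccni (0.486), Ncf1 (0.497), Chmp2a (0.520), Nedd9 (0.525), Lmbrd1 (0.564), Bola2 (0.613) and Srp14 (0.625), lower. At day 0 they were Ifi30, a lysosomal thiol reductase of antigen processing (2.44, 1.77 to 3.38), Ifi209 (2.31), Ly6d (2.28, 1.95 to 2.68), Ptpn6, Rnase6 (2.13), Rnasek (2.11), Dusp2 (2.06) and Tut4 (1.99), higher in KO, and BE692007 (0.321), Erh (0.343), Fchsd2 (0.376), Smap2 (0.493), Zfp318 (0.519), Stap1 (0.520), Ighd (0.529, 0.362 to 0.760) and Cd38 (0.533), lower. Ly6d, an early lymphoid surface marker, had 2166 CPM in KO day 4, 1890 in control day 4, 4089 in KO day 0 and 1790 in control day 0. Ifi30 had 800, 934, 1065 and 437 CPM in that order. Both were therefore set apart in 1 day 0 pool, and at day 4 Ly6d was at 1.15, or 0.966 without the 4 cells, and Ifi30 at 0.856. Cd24a was at 1.10 in KO over control at day 4 and 1.33 (1.01 to 1.75) at day 0. Of 5 immature marker genes with 50 UMIs at day 0, 0 passed 1.5-fold, and of 6 at day 4, 1 was higher and 1 lower. Of 18 antigen receptor signalling genes at day 4, 6 were higher and 1 lower, and without the 4 cells 3 were higher and 1 lower, beside 7.83% higher and 4.68% lower of all genes.

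Markers of other cell types were scarce in the Cd93+ Vpreb3+ cells. Of 8 T cell markers only Lck had UMIs, 17.4 CPM in sum against 26.9 CPM in Cd93- Vpreb3- cells, with Cd3d, Cd3g, Trac, Trbc2, Cd4, Cd8a and Cd8b1 at 0; by pool the sum was 9.07 to 21.5 CPM. Of the NK cell markers only Nkg7 was present, 2.67 against 2.28 CPM. The 10 myeloid and dendritic markers summed to 88.1 CPM against 139 CPM, with 7 of 10 detected and 3 UMIs of Lyz2; by pool they were 113 CPM in KO day 4, 81.6 in control day 4, 47.1 in KO day 0 and 78.8 in control day 0, against 26.3 to 179 CPM by pool in Cd93- Vpreb3- cells. Leaving out the 4 cells, the sum was 56.7 CPM in KO day 4 and 77.0 in control day 4, and their part in the results was not tested. Of the 6 erythroid markers only Hbb-bt was present, and the sum was 24.8 CPM in KO day 4, 9.07 in control day 4, 18.8 in KO day 0 and 21.5 in control day 0, against 2848, 5.71, 6.24 and 11.4 CPM in Cd93- Vpreb3- cells. The Cd93+ Vpreb3+ cells were thus lower in KO day 4 and at a higher value in the other 3 pools, and 12542 of the 12597 erythroid UMIs of Cd93- Vpreb3- cells were in KO day 4. Bone marrow B precursor markers summed to 195 CPM with the 4 cells and 32.6 CPM without them, against 1.27 CPM; 129 CPM were in control day 0, with the Il7r-rich cell, and 9.42 in KO day 0. Germinal center markers were at 89.5 CPM against 78.6 CPM.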

How the data were processed

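The deposited files held UMI counts per gene and cell barcode, with hashtag counts as extra rows, of a B library and a T library; per the submitters' processing notes the authors made these counts with Cell Ranger 5.0.0 on mm10, with an annotation release not given in the sources used here. Gene positions came from GENCODE M21, in which 32235 of the 32285 gene IDs matched, and promoter sequences from RefSeq.

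Cells were kept and assigned as the opening of the results states; cells with several hashtags were left out by the hashtag ratio, and no doublet caller was run. UMIs were summed over the cells of a class and pool and divided by their total (CPM). Levels carry exact Poisson intervals, shares Clopper-Pearson intervals, and ratios intervals from the binomial of both counts given their sum, all at 95%; they were tested on simulated data. There was 1 pool per group, so no test was made, and a result here is called higher or lower by the size of its ratio. A gene counted as past the limit at 1.5-fold or more if both sums held 50 UMIs or more between them.

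Named genes were the markers, Il2rb, Il2ra and Il2rg, members of gene lists, and the 12 highest and 12 lowest genes (8 and 8 between pools) with 50 UMIs, an interval that leaves out 1, detection in 5% or more of the higher class's cells, at most 20% of its UMIs in 1 cell, and no receptor variable, diversity or joining genes or genes of the rule. The cells and the lists were chosen with earlier results of these data known. The split by Fcer2a, the lambda share by variable genes and the values without the 4 cells were added after seeing the data. The 4 cells were taken out of the Cd93+ Vpreb3+ cells only, and the Cd93- Vpreb3- cells stayed whole. Python 3.11.15 with numpy 2.4.6, scipy 1.17.1, pandas 2.3.3 and matplotlib 3.10.9 was used. Alternatives changed 1 filter, depth, scaling, comparison class or pool at a time. The T library served only for background shares and shared barcodes. A few genes that the rule for named genes or the lists hold are not reported here by name.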

Additional observations from a re-analysis of the deposited data

Results flagged for a closer look

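The genes in this section are named because they pointed in opposite directions under the same contrast, with both counting intervals leaving out 1; the difference between the contrasts itself was not tested, and each rests on 1 pool per group.

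Gimap8, a small GTPase of lymphocytes, was higher in KO at day 4 (45 against 14 UMIs, a ratio of 2.51) and lower in KO at day 0 (5 against 21 UMIs, 0.313). By day it was higher at day 4 in KO (3.38) and lower at day 4 in control (0.422), and without the 4 cells the KO ratio at day 4 was 2.31. Ighd, the IgD heavy chain, was at 1.32 in KO over control at day 4 and at 0.529 at day 0. Over all pools Ighd had 397 UMIs with and without the 4 cells. Without them it kept its directions, but its day 4 interval came to include 1, so it no longer met the rule of this section. Ifi30 then met the rule, at 0.815 (0.672 to 0.990) at day 4 and 2.44 at day 0, in the same directions as with all cells.

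Between day 4 and day 0 the genotypes differed in direction for Ifi30, the lysosomal thiol reductase, at 0.751 in KO and 2.14 in control, for the splicing factor Tra2b at 2.55 in KO (61 against 9 UMIs) and 0.428 in control (25 against 37 UMIs), and for Trim30a at 0.497 in KO and 2.0 in control. Tra2b was at 2.87 in KO and 0.519 in control without the 4 cells, and Trim30a at 0.531 and 2.42.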

How the results depend on the processing

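Of 105 values of the main results under other settings, 87 stayed within the interval of the main value or, for a count of genes, within 1.5 times of it, and 18 did not. None of the ratios of shares had an interval that left out 1 under the rule, so their direction is not counted, and several crossed 1 below. With 2 UMIs of both Cd93 and Vpreb3 only 0.290% of B cells remained, and the ratios of shares were 0.160 for KO over control at day 0, 2.01 for day 4 over day 0 in KO and 0.423 in control. The genes past 1.5-fold were then 5070 against Cd93- Vpreb3- cells (2095 with the rule), 36 between genotypes at day 4 (193), and 53 in KO (231) and 39 in control (172) between days. With either gene 51.8% of B cells qualified, and per 100 Cd93- Vpreb3- Fcer2a+ cells there were 6.54. Thinned to 3000 UMIs the share was 0.963%, and thinned to 1500 it was 0.364%, with ratios of 1.78 and 2.59 for KO over control at day 4 and day 0 and 0.503 for day 4 over day 0 in KO, from 3 to 7 cells a pool. Fcer2a was found in 51.4% at 2 UMIs and in 39.3% at 1500 UMIs, and lambda cells were 21.5% by variable genes against 89.7% by constant genes. Leaving out 1 pool at a time gave 2022 to 2309 genes past 1.5-fold.

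Of 1938 values of named genes under other settings, 18 reversed. With 2 UMIs of both rule genes these were Bhlhe41 (0.996), Igkc (0.482) and Jchain (0.0103) against Cd93- Vpreb3- cells, Ighd (0.564), Ly6d (0.878), BE692007 (1.77) and Ifi209 (0.591) between genotypes, and Gm42031 (1.09), Siglecg (2.19), Tra2b (0.657) and Vim (1.09) in KO and Gimap8 (1.06) in control between days. Without the 4 cells Igkc (0.617), Jchain (0.0083) and Ly6d at day 4 (0.966) reversed. Ly6d at day 4 also did with cells weighted equally (0.996), and Ighm, which leaving out 1 pool at a time placed between 0.985 (without KO day 4) and 2.41. Lig4 ran from 0.442 (without KO day 4) to 4.02 in the same way. The cause was not tested. No paired analysis was possible because each group is 1 pool and the labels number no replicates.

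The limits are depth and number: the pools held 20 to 36 of the cells, and 86 of all 107 cells were recognised by a single Cd93 UMI.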

Other observations

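Genes of DNA joining and of early receptor responses were not described above. Of 7 V(D)J recombination genes with 50 UMIs in Cd93+ Vpreb3+ and Cd93- Vpreb3- cells together, 3 were 1.5-fold or more higher and 0 lower, with a median log2 ratio of 0.29, beside 8.33% higher and 13.7% lower of all genes. They were Lig4, a DNA ligase, at 2.84 (1.23 to 5.84), Xrcc6, which encodes Ku70, at 2.46 (1.68 to 3.51) and Dclre1c, the hairpin-opening nuclease Artemis, at 1.67 (1.06 to 2.53); without the 4 cells they were at 2.11, 1.90 and 1.71. Lig4 rested on KO day 4, and without that pool it was at 0.442.

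Of 13 receptor-induced early genes 3 were higher and 1 lower, with a median log2 ratio of 0.03, beside the same shares of all genes. Nr4a1, a nuclear receptor induced by antigen receptor signals, was the lower one, at 10.7 CPM against 24.8 CPM, a ratio of 0.430 (0.184 to 0.858) from 8 UMIs, and Jun was at 1.57 (1.13 to 2.12), or 1.29 without the 4 cells. Of 8 dividing cell genes Stmn1, a regulator of microtubules, was higher at 1.88 (1.02 to 3.22) and 0 were lower; the rule itself had removed cells with Mki67.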
